A study of Mus musculus with 35 samples.

Results

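Adipocytes store triglyceride in lipid droplets, whose surface carries coat proteins and CIDE proteins, and release fatty acids from them by lipolysis. Plin2 (perilipin 2, also called adipophilin) coats droplets in many cell types, lipid-loaded macrophages included. Cidec, the mouse counterpart of human CIDEC, sits where droplets touch and moves lipid from smaller to larger ones, and is known as a target of the nuclear receptor PPAR gamma in fat. Lipe encodes hormone-sensitive lipase, which hydrolyses diacylglycerol after adipose triglyceride lipase (Pnpla2) has removed the first fatty acid; beta-adrenergic signalling through cyclic AMP activates it by phosphorylation and insulin opposes that. The 3 genes were taken by their symbols from the annotation of the array, which gave 1 probe set each, out of 8251 genes that the annotation names and 12422 probe sets tested.

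All samples were perigonadal fat of C57BL/6J mice aged 22 weeks, 35 in 10 groups, with 1 array per sample. The untreated wild-type mice were 4 lean females, 4 lean males and 3 males made obese by the diet D12451, called diet-induced obese here. The untreated mutants were 4 ob/ob females and 4 ob/ob males, without functional leptin, and 4 Ay/+ females, heterozygous for yellow agouti. The PPAR gamma agonist pioglitazone was the treatment of 3 Ay/+ females, of 3 ob/ob females and of 4 males on the obesity diet, over 2 weeks and at a daily dose of 10 mg/kg, although the label of Ay/+ replicate 3 gives no dose. Another 2 ob/ob females received CL316243, which activates the beta3-adrenergic receptor, at a daily dose of 3 mg/kg over 2 weeks. The labels do not say whether a sample came from 1 animal or a pool, so p-values measure the spread between these samples. The ob/ob and Ay/+ mice carried their alleles in every tissue, and no group separates effects that arise in fat from those that arise elsewhere.

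Values are signals of the array software, brought to the same trimmed mean on every array. They are proportional to brightness, can be compared between arrays for 1 gene, and are not compared between genes. The arrays fell into 22 earlier and 13 later ones by the form of their experiment files; all ob/ob males were on later arrays and all treated females on earlier ones. Of the 12 adipocyte markers measured, none had a mean signal below 23 (the constant added before taking log2). Their summed signal was lowest in ob/ob males, from 20527 to 30918, and that of 12 macrophage markers was highest there, from 30533 to 42213. 4 arrays stood apart in earlier work on these data: replicate 1 of the untreated Ay/+ females and replicate 4 of the untreated ob/ob females, with the lowest mean correlations with their own groups (0.872 and 0.877), and replicate 3 of the treated Ay/+ and replicate 1 of the treated diet-induced obese mice.

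The 5' ends of the genes are shown because 1 of the drugs acts on a DNA-binding receptor and the other on cyclic AMP signalling. Each line holds the 250 bases before and 50 bases after an annotated start, from RefSeq, build GRCm38.p6, all on the minus strand. The windows lie at chr4:86670010-86670309 for Plin2, chr6:113435711-113436010 for the first Cidec start and chr7:25395938-25396237 for the first Lipe start. Capitals mark matches on either strand to AGGTCA (the core letters read by nuclear receptors such as PPAR gamma), CACGTG (an E-box), TGACG (the core of the cyclic AMP response element), TATAAA and GGGCGG (read by Sp1).
Plin2: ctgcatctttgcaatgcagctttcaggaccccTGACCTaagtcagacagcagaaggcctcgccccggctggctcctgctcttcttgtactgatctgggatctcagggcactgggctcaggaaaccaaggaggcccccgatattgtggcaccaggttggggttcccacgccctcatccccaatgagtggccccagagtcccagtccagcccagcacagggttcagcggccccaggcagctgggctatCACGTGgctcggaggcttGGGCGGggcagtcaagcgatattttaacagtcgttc
Cidec: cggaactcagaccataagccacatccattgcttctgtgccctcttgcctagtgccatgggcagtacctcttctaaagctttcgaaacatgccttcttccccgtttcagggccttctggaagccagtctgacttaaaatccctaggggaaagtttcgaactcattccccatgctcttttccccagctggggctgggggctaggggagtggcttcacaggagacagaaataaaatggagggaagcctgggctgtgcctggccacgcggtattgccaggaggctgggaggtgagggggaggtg
Lipe: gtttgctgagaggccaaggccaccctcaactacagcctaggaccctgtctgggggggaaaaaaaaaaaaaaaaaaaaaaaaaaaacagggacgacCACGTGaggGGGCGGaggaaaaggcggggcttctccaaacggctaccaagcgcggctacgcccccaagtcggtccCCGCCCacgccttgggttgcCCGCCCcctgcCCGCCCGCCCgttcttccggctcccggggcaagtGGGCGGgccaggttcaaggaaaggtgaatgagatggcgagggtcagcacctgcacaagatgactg

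The Plin2 window held AGGTCA once, on the opposite strand and starting at base -218, CACGTG at -4 and GGGCGG at 15, counted from the start. The Lipe window held CACGTG at -155 and GGGCGG 6 times, in part overlapping, and the Cidec window held none of the 5 motifs. A second Cidec start, at chr6:113434715-113435014, and a second Lipe start, at chr7:25390063-25390362, held none either. Over 32851 windows of the same length, AGGTCA was found in 16.3%, CACGTG in 7.15%, TGACG in 20.8%, TATAAA in 13.6% and GGGCGG in 35.7%. The direct repeat of AGGTCA with 1 base between was in 0.0396% of the windows and in none of these 5. The matches are descriptions of the letters in these windows.

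The signal of Plin2 ran from 812 to 12711 over the 35 arrays, 15.6 times from lowest to highest, that of Cidec from 693 to 10602 (15.3 times) and that of Lipe from 955 to 5533 (5.80 times). Ordered by mean log2, neighbouring groups overlapped in 8 of 9 steps for Plin2, 7 of 9 for Cidec and 8 of 9 for Lipe. The steps without overlap were, for Plin2, from CL316243-treated ob/ob females down to untreated Ay/+ females. For Cidec they were from pioglitazone-treated to untreated Ay/+ females at the top and from CL316243-treated ob/ob females to ob/ob males near the bottom. For Lipe it was the last step, from ob/ob females down to ob/ob males. Of all probe sets, 9.06% had no overlap between pioglitazone-treated and untreated Ay/+ females, and 9.25% between ob/ob males and females. For the steps that involve the 2 CL316243 arrays the share was not computed. Between those arrays and untreated ob/ob females it was 28.0%. Across the arrays Cidec and Lipe varied together (Pearson r 0.71 over 35 arrays and 0.74 within groups), while Plin2 had an r of 0.04 with Cidec and 0.26 with Lipe, all as descriptions.

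**Figure D1:**
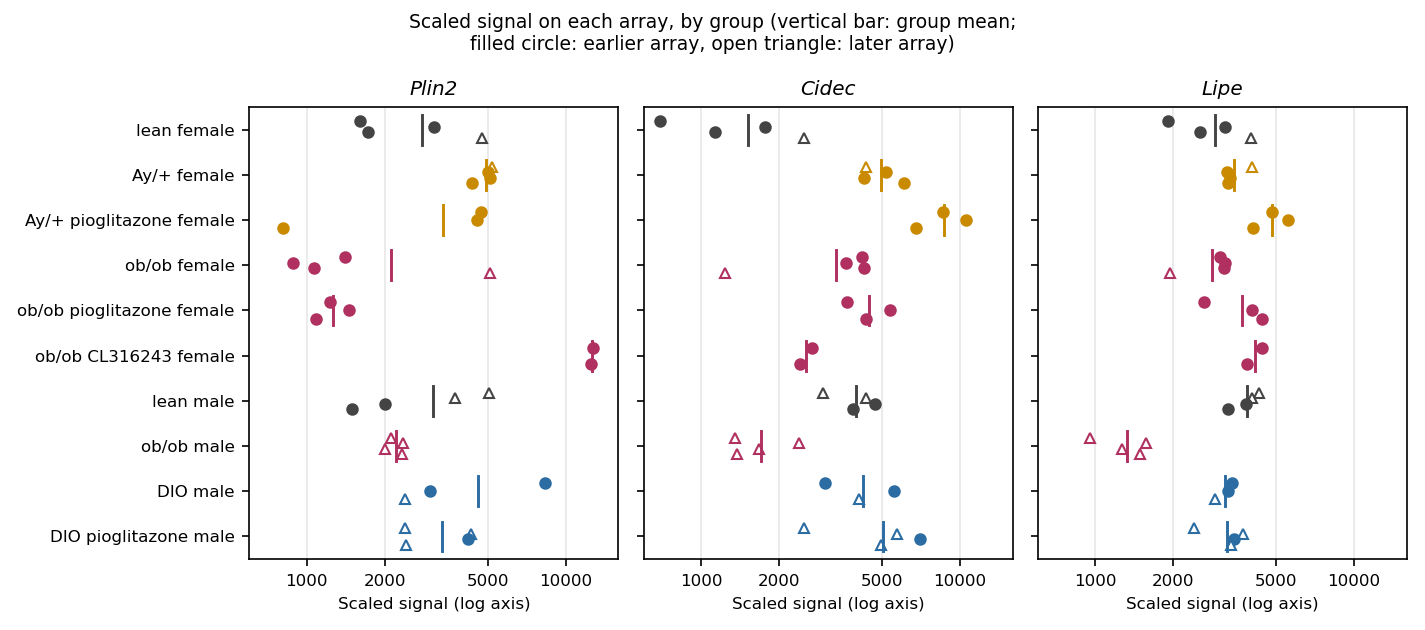
Scaled signal (log axis) of Plin2, Cidec and Lipe on each array, with the 10 groups as rows, 1 point per array and a vertical bar at the group mean; filled circles are earlier and open triangles later arrays. The 2 CL316243 arrays stand at 12711 and 12498 for Plin2, above every other array, and the 4 ob/ob male arrays lie between 955 and 1562 for Lipe, all below the lean males.

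CL316243 was the treatment with the largest difference in Plin2 among the comparisons made. The CL316243-treated ob/ob females had signals of 12711 and 12498, against 1405, 884, 1069 and 5092 in untreated ob/ob females. The treated arrays lay above all others in the series, and untreated replicate 4, a later array and 1 of the 4 that stood apart, lay well above the other untreated ones. Plin2 was 7.70-fold higher (log2 2.95, SE 0.58, adjusted p = 0.0049), where 3.74% of all probe sets were called at an adjusted p under 0.05. That share was 464 probe sets, and 4 without the first CL316243 array. Within the earlier arrays the difference was 3.49 (adjusted p = 7.6e-05). No scan day was shared between these groups, so drug and scan day cannot be told apart. Fitted on the compared groups alone the adjusted p was 0.0999, and without the first or second CL316243 array 0.109 or 0.0829.

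The genes whose pattern over the 35 arrays was most like that of Plin2, among 4871 genes searched, were Snrpb (r = 0.86), Eef1a1 (0.83), Tuba1c (0.83), Ybx1 (0.83) and Ndufa7 (0.82). Snrpb encodes a core protein of the spliceosome, Eef1a1 a translation elongation factor, Tuba1c an alpha tubulin, Ybx1 an RNA-binding protein and Ndufa7 a subunit of respiratory complex I. They varied with Plin2 within groups too (r from 0.71 to 0.86). Their mean log2 signal was 13.3 and 13.2 on the CL316243 arrays, 11.7, 11.2 and 11.1 on ob/ob female replicates 1 to 3 and 13.1 on replicate 4. At that common level of the 5 genes, replicate 4 had a Plin2 log2 signal of 12.3 and the treated arrays of 13.6. Of the 5, Tuba1c was called higher with CL316243 (log2 1.84, adjusted p = 0.019), and Snrpb had a larger difference (1.89, adjusted p = 0.286) that was not called. With their mean as a covariate, chosen after seeing the data and for its likeness to Plin2, Plin2 was 1.52 higher with CL316243 (SE 0.34, adjusted p = 0.0537). Genes picked for likeness to Plin2 over these same arrays take up part of a Plin2 difference by that choice. The covariate fit is therefore a description, and the part of the 5 genes in the result was not tested.

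**Figure D2:**
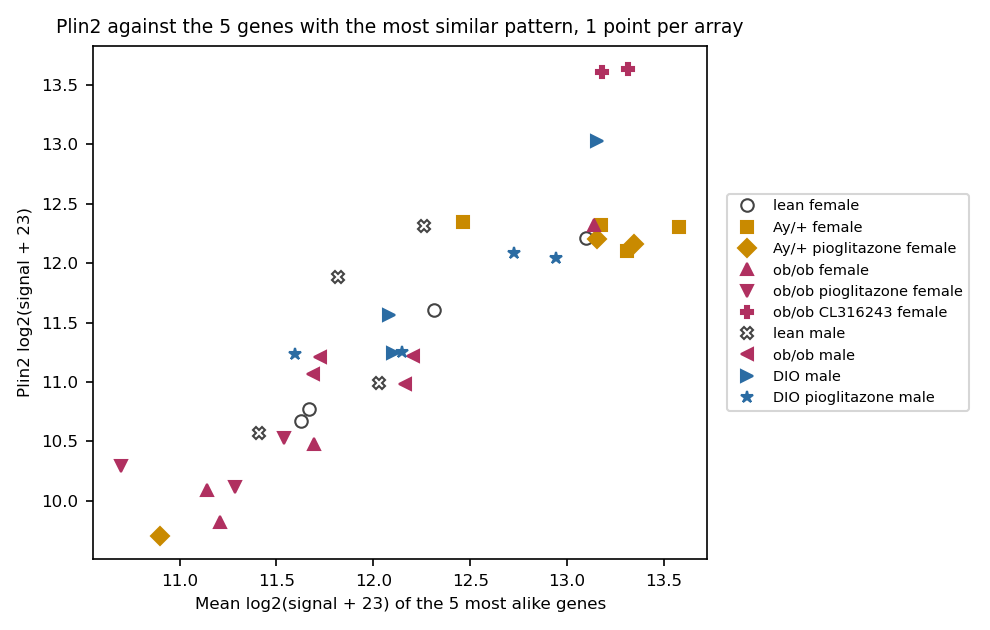
Plin2 against the mean of Snrpb, Eef1a1, Tuba1c, Ybx1 and Ndufa7, 1 point per array, with log2 of signal plus 23 on each axis and a symbol for each of the 10 groups. The arrays follow a common slope; the 2 CL316243 arrays, at 13.6 on the vertical axis, lie above ob/ob female replicate 4, at 12.3, for a similar mean of the 5 genes.

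Cidec and Lipe did not share the Plin2 difference. Cidec was 2685 and 2402 with CL316243, against 4169, 3628, 4248 and 1242 in untreated ob/ob females (log2 -0.23, 95% interval -1.09 to 0.62, adjusted p = 0.847). The treated arrays lay within the untreated range only through replicate 4, at 1242, a later array that stood apart. Both treated arrays lay below the other untreated ones, at 3628 to 4248. Leaving out each array in turn gave log2 differences from -0.65 to -0.07 for Cidec. Lipe was 4408 and 3856 with CL316243, against 3024, 3170, 3143 and 1936, so the treated arrays lay above all untreated ones (log2 0.57, 95% interval 0.04 to 1.11, adjusted p = 0.235). With 2 treated arrays, 28.0% of all probe sets had no overlap between these groups, and 3.74% were called. Of the 22 measured genes of adrenergic and cyclic AMP control none was called by limma here (median log2 0.03, all genes -0.03). An unadjusted p under 0.05 was found for 6 of the 22 and for 2271 of all 12422 probe sets. Of 10 lipolysis genes 2 were higher and 0 lower (median 0.33): Ces1d (log2 1.47, adjusted p = 0.0092), a carboxylesterase of fat that can hydrolyse triglyceride, and G0s2 (1.38, adjusted p = 0.019), an inhibitor of Pnpla2. Pnpla2 itself had a log2 difference of 0.34 and Mgll, which cleaves monoacylglycerol, of 0.53, neither called.

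Of the 14 measured droplet genes, 2 were higher with CL316243, Plin2 and Cidea (log2 1.75, adjusted p = 0.023), a CIDE protein of brown fat, and 2 lower, the small GTPases Rab7 (-1.40, adjusted p = 0.01) and Rab18 (-1.09, adjusted p = 0.0437). The share called over all probe sets was 3.74%. The summed signal of the adipocyte markers was 51416 to 60105 with CL316243 and 30457 to 38956 without, with 2 of 12 higher (Retn and Lep) and 0 lower; Adipoq (adiponectin) had a log2 difference of 0.97 that was not called. The macrophage sum was 24214 to 25952 with the drug and 20223 to 29204 without, and 0 of 12 were called by limma. An unadjusted p under 0.05 was found for 3 of the 12 and for 2271 of all 12422 probe sets. The part of the adipocyte markers in the Plin2 result was not tested.

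Against pioglitazone in ob/ob females, where 7.59% of probe sets were called and no scan day was shared, Plin2 was 9.93-fold higher with CL316243 (log2 3.31, SE 0.61, adjusted p = 7.1e-04). The pioglitazone arrays were at 1233, 1454 and 1086, all below the CL316243 arrays. With the 5-gene covariate, picked for its likeness to Plin2, the difference was 1.27 (adjusted p = 0.11), as a description. Cidec was 3673, 5350 and 4331 with pioglitazone, above both CL316243 arrays (log2 -0.79 for CL316243, adjusted p = 0.304), and Lipe was 2621, 4036 and 4404, overlapping them (0.19, adjusted p = 0.748). Among all probe sets 52.8% had no overlap in this contrast. The 2 drugs were given at different doses. Other genes differed in this contrast: Cidea (-2.07), Abhd5 (-1.52), the co-activator of Pnpla2, Aqp7 (-2.18), the glycerol channel of fat cells, and Dgat1 (-1.31), which makes triglyceride from diacylglycerol, were lower with CL316243, and G0s2 was higher (1.34).

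None of the 3 genes was called by limma with pioglitazone in any of the 3 models, and of the 9 tests 1, of Cidec in Ay/+ females, had an unadjusted p under 0.05. Of all 12422 probe sets, 1852 had such a p in Ay/+ females, 874 in ob/ob females and 1255 in diet-induced obese males. In Ay/+ females Cidec was 8595, 10602 and 6761 with the drug and 4330, 5196, 4261 and 6074 without. The treated arrays were all above the untreated ones, 1.73-fold on the fit (log2 0.79, 95% interval 0.04 to 1.54, adjusted p = 0.299), where 3.03% of probe sets were called. Lipe was 4822, 5533 and 4061 with the drug and 4012, 3217, 3300 and 3246 without, also with no overlap (log2 0.47, 95% interval -0.00 to 0.95, adjusted p = 0.336). Of all probe sets 9.06% had no overlap here. Plin2 was 4697, 4562 and 812 with the drug and 5180, 5037, 5101 and 4366 without (log2 -0.91, adjusted p = 0.427). Treated replicate 3, whose label lacks a dose, carried that Plin2 difference: without it the log2 value was -0.08 (adjusted p = 0.966). It was 1 of the 4 arrays that stood apart. The 5th percentile of its signals was 24.0, against 4.71 and 5.01 on treated replicates 1 and 2. The mean log2 signal of the 5 genes most like Plin2 was 10.9 on it, against 13.2 and 13.3. The part of these traits in the Plin2 value was not tested.

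In ob/ob females, where 1.06% of probe sets were called and no scan day was shared, the log2 differences with pioglitazone were 0.55 for Cidec (95% interval -0.20 to 1.30, adjusted p = 0.942), 0.38 for Lipe (-0.10 to 0.85, adjusted p = 0.911) and -0.37 for Plin2 (-1.41 to 0.67, adjusted p = 0.999). Treated and untreated ranges overlapped for all 3. Untreated replicate 4, 1 of the 4 arrays that stood apart, was the lowest untreated array for Cidec and Lipe and the highest for Plin2. Leaving out each array in turn gave 0.13 to 0.72 for Cidec, 0.21 to 0.60 for Lipe and -0.65 to 0.18 for Plin2, with no call. In diet-induced obese males, where 1.42% were called, Cidec was 2493, 5691, 7033 and 4979 with the drug and 3015, 5558 and 4079 without (log2 0.21, adjusted p = 0.924). Lipe was 2407, 3728, 3439 and 3333 with it and 3369, 3262 and 2906 without (0.01, adjusted p = 0.998). Plin2 was 2391, 4313, 4211 and 2419 with it and 8340, 3001 and 2400 without (-0.29, adjusted p = 0.923). All 3 genes overlapped between treated and untreated males. Treated replicate 1, at 2493 for Cidec and 2407 for Lipe, was 1 of the 4 arrays that stood apart. Its ratio of the 3' to the 5' Gapdh control signal, a sign of RNA quality, was 46.9, against 0.91 to 1.16 in untreated males. Without this array the log2 differences were 0.51 for Cidec and 0.14 for Lipe, neither called. The part of RNA quality in these values was not tested.

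The difference of the pioglitazone effect between models was called by limma for 0 of the 3 genes in each of 3 contrasts, and none of these tests had an unadjusted p under 0.05. These were ob/ob minus Ay/+ females (0.0242% of probe sets called), diet-induced obese males minus Ay/+ females (0% called, with 966 probe sets at an unadjusted p under 0.05) and diet-induced obese males minus ob/ob females (0.00805% called). The intervals were wide: for Cidec in ob/ob minus Ay/+ females the difference was -0.24 with a 95% interval from -1.30 to 0.83.

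Other genes of droplets and lipolysis did rise with pioglitazone. Of all probe sets 3.03% were called in Ay/+ females, 1.06% in ob/ob females and 1.42% in diet-induced obese males. Cidea was the 1 droplet gene of 14 called in each model (log2 3.17 in Ay/+ females, 3.82 in ob/ob females and 2.36 in diet-induced obese males, adjusted p from 2.2e-07 to 3.3e-04), with none lower. Of the 7 brown fat markers, Cidea included, 4 were higher and 0 lower in each model, among them Ucp1 (4.15, 5.09 and 2.17) and the respiratory subunits Cox7a1 (1.90, 1.81 and 2.04) and Cox8b (1.77, 1.80 and 1.65), and their part in the Cidea result was not tested. Of the 10 lipolysis genes 3, 3 and 2 were higher and none lower: Aqp7 (1.86, 1.68 and 1.39) and Ces1d (1.04, 2.16 and 1.08) in all 3 models, and Abhd5 in Ay/+ (1.80) and ob/ob females (1.12) but not called in the males (0.78). Of 24 known PPAR target genes measured, a list that holds Cidec and Plin2, 10, 9 and 9 were higher and 0 lower, with medians of 0.81, 0.63 and 0.77. Of 14 triglyceride synthesis genes 2, 1 and 1 were higher, among them Agpat3, an acyltransferase, in each (1.35, 0.77 and 0.83). Of the 22 adrenergic genes 3, 1 and 0 were higher and none lower. The lists were drawn up with results of these data known.

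**Figure D3:**
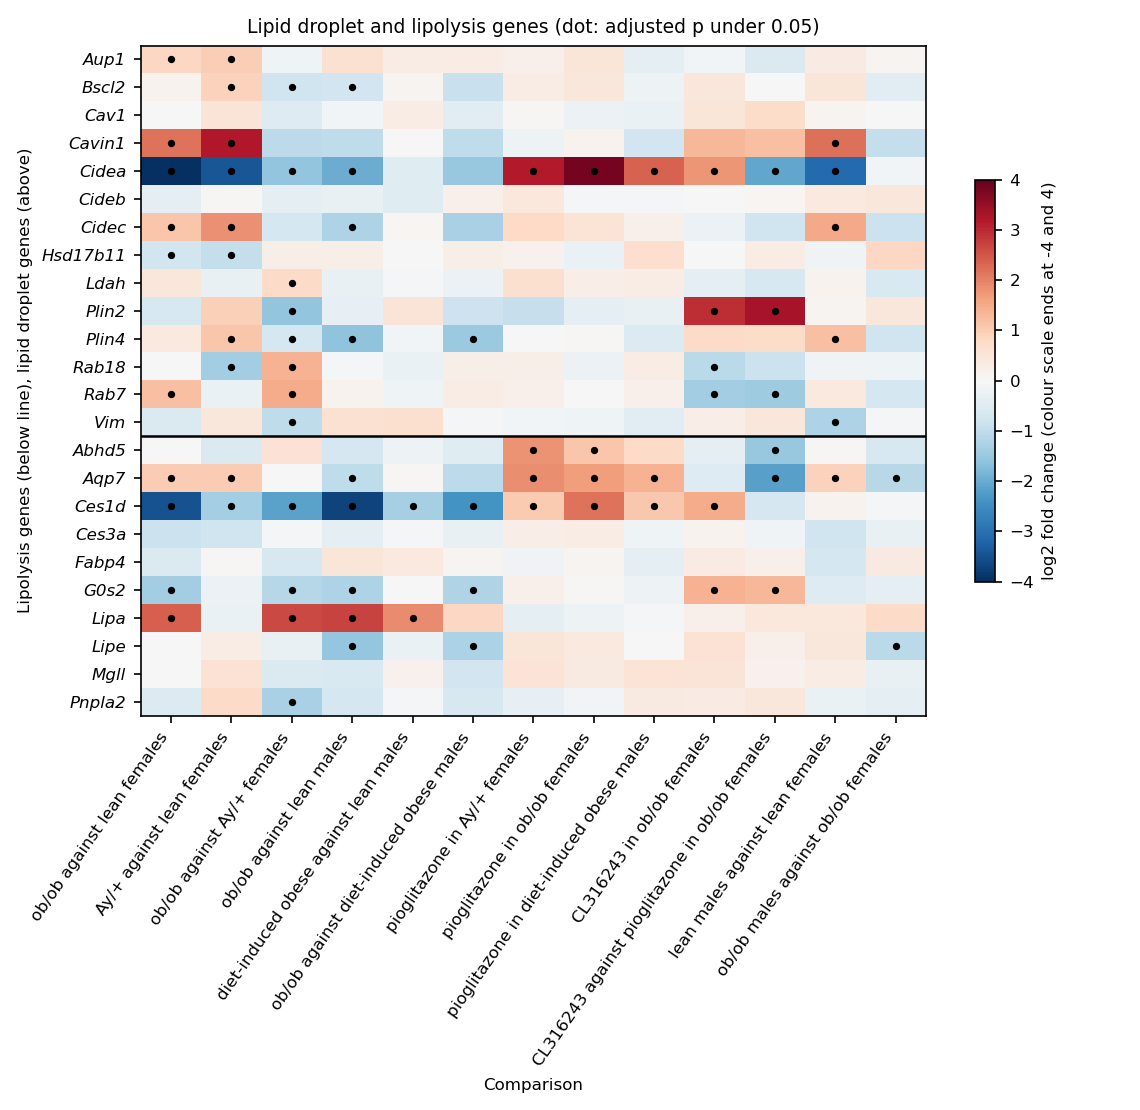
Log2 fold change (colour, scale from -4 to 4) of the 14 droplet genes above the line and the 10 lipolysis genes below it in 13 comparisons, with a dot where the adjusted p was under 0.05. Cidea is marked in all 3 pioglitazone columns, Plin2 in both CL316243 columns, and Lipe in the 3 columns of ob/ob males.

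Between untreated groups, Cidec was higher in both obese female groups than in lean females. Lean females had Cidec signals of 693, 1762, 1131 and 2491, the highest on the later array. All Ay/+ females, listed above, lay over the lean range, and Cidec was 3.56-fold higher (log2 1.83, SE 0.34, adjusted p = 3.6e-04), where 17.8% of probe sets were called and 10.9% had no overlap. The ratio of the 3' to the 5' Gapdh control signal, a sign of RNA quality, was 1.31 to 2.51 in lean and 0.74 to 1.02 in Ay/+ females, and its part in the result was not tested. The difference was 2.18 on earlier arrays (adjusted p = 3.0e-06) and 0.79 on the later ones, with 1 array a group (adjusted p = 0.585). In ob/ob females Cidec was 2.17-fold higher (log2 1.12, SE 0.34, adjusted p = 0.017), against 24.3% of probe sets called. The ranges overlapped, since ob/ob replicate 4, on a later array, was at 1242. The Gapdh ratio was 1.85 on that array and 0.71 to 0.85 on the other ob/ob female arrays. Earlier arrays gave 1.82 (adjusted p = 2.2e-05) and the later arrays, 1 in each group, -0.99 (adjusted p = 0.368). With scan day as a random block the ob/ob difference was 0.78 (adjusted p = 0.189). It also lost its call without lean replicate 1 or 3 or without ob/ob replicate 1, 2 or 3 (adjusted p from 0.053 to 0.11).

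Lipe and Plin2 were not called against lean females in either model. Lipe was 1901, 3155, 2535 and 3992 in lean females, with a log2 difference of -0.01 in ob/ob (95% interval -0.45 to 0.42, adjusted p = 0.971) and 0.29 in Ay/+ females (-0.14 to 0.73, adjusted p = 0.378). Plin2 was 1610, 3097, 1724 and 4737 in lean females, the last being the later array, with -0.64 in ob/ob (adjusted p = 0.338) and 0.95 in Ay/+ (adjusted p = 0.167). Without ob/ob replicate 4 the ob/ob value of Plin2 was -1.18 (adjusted p = 0.0416). Between the obese models, where 21.6% of probe sets were called, Plin2 was 3.01-fold lower in ob/ob than in Ay/+ females (log2 -1.59, SE 0.47, adjusted p = 0.016). Earlier arrays gave -2.11 (adjusted p = 8.9e-04) and the later pair -0.02 (adjusted p = 0.985). The call was lost with scan day as a random block (-1.45, adjusted p = 0.0517), on the compared groups alone (adjusted p = 0.0836) and without ob/ob replicate 2 or 3 (adjusted p = 0.0773 and 0.0577). With the 5-gene covariate, picked for its likeness to Plin2, the Plin2 difference was -0.28 (adjusted p = 0.561), as a description. Cidec (-0.71, adjusted p = 0.134) and Lipe (-0.31, adjusted p = 0.312) were not called. The ob/ob arrays lay below all Ay/+ arrays for each, and 10.7% of all probe sets had no overlap.

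Other genes of droplets and lipolysis also differed from lean females. Against lean females, 24.3% of all probe sets were called in ob/ob and 17.8% in Ay/+ females. Cidea was lower in ob/ob (log2 -4.99, adjusted p = 6.5e-12) and in Ay/+ females (-3.42, adjusted p = 3.6e-08) than in lean females, opposite to Cidec. Cidea is also 1 of 7 measured brown fat markers, of which 0 were higher and 5 lower in ob/ob and 0 and 4 in Ay/+ females. Ucp1, the uncoupling protein of brown fat, was among them (-4.25 and -3.05). The brown fat markers summed to 3300 to 7397 in lean females, against 704 to 1770 in Ay/+ females and 367 to 439 in ob/ob females, and their part in the Cidea difference was not tested. Cavin1, a caveolar coat protein, was higher (2.16 and 3.22). In all, 4 of 14 droplet genes were higher and 2 lower in ob/ob females (median 0.06, all genes -0.16), and 5 and 3 in Ay/+ females (0.48, all genes -0.08). Of 10 lipolysis genes 2 were higher and 2 lower in ob/ob females: Lipa, the lysosomal lipase (2.38), and Aqp7 (1.01), against Ces1d (-3.50) and G0s2 (-1.38). Of 14 triglyceride synthesis genes none was higher and 4 were lower in ob/ob and 5 in Ay/+ females, among them Gpam (-1.87 and -1.21), which adds the first fatty acid to glycerol phosphate. Macrophage markers were higher for 9 of 12 in ob/ob (summed signal 20223 to 29204, lean 3175 to 5757) and 6 of 12 in Ay/+ females (7969 to 14811). Fewer cells of a type and less RNA per cell cannot be told apart in whole tissue, and the part of these markers in the Cidec result was not tested.

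In ob/ob males Cidec differed from lean in the direction opposite to that in females, and Lipe, not called in females, was lower. ob/ob males had Lipe signals of 955, 1562, 1266 and 1494, all below lean males at 4305, 4017, 3835 and 3249. Lipe was 2.92-fold lower (log2 -1.55, SE 0.22, adjusted p = 2.8e-06), where 10.6% of probe sets were called. Cidec was 1351, 2382, 1681 and 1377 in ob/ob and 2959, 4349, 4691 and 3853 in lean males, 2.34-fold lower with no overlap (log2 -1.23, SE 0.34, adjusted p = 0.014). Of all probe sets 20.8% had no overlap between these groups. Later arrays alone, 2 lean and 4 ob/ob, gave -1.66 for Lipe (adjusted p = 0.0012) and -1.11 for Cidec (adjusted p = 0.062), and without ob/ob male replicate 4 Cidec had an adjusted p of 0.052. Plin2 was 2118, 2361, 2004 and 2342 in ob/ob and 5062, 3754, 2010 and 1498 in lean males (log2 -0.32, adjusted p = 0.833), and the 2 later lean arrays were the higher ones. These groups shared no scan day, so genotype and scan day cannot be told apart.

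Adipocyte and macrophage markers moved in the same contrast, where 10.6% of all probe sets were called. Of 12 adipocyte markers 0 were higher and 7 lower in ob/ob than in lean males, among them Slc2a4 (-2.54), the insulin-responsive glucose transporter, Rbp4 (-2.69) and Pparg (-1.21), with summed signals of 20527 to 30918 and 41109 to 49215. Of 12 macrophage markers 11 were higher, Cd68 by 3.17, with sums of 30533 to 42213 and 6795 to 8100. Their part in the Lipe and Cidec results was not tested. Of 14 droplet genes none was higher and 4 lower (Plin4, a droplet coat protein of fat, -1.60; Cidea -1.97; Cidec; and Bscl2, seipin, -0.77), with a median of -0.29. Of 10 lipolysis genes 1 was higher (Lipa 2.71) and 4 lower (Ces1d -3.72, Lipe, G0s2 -1.22 and Aqp7 -1.02). Pnpla2 (-0.69) and Abhd5 (-0.69) were not called. Of 10 genes of insulin control Akt2, the insulin-responsive kinase of fat, was lower (-1.68) and Akt1 higher (0.81).

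**Figure D4:**
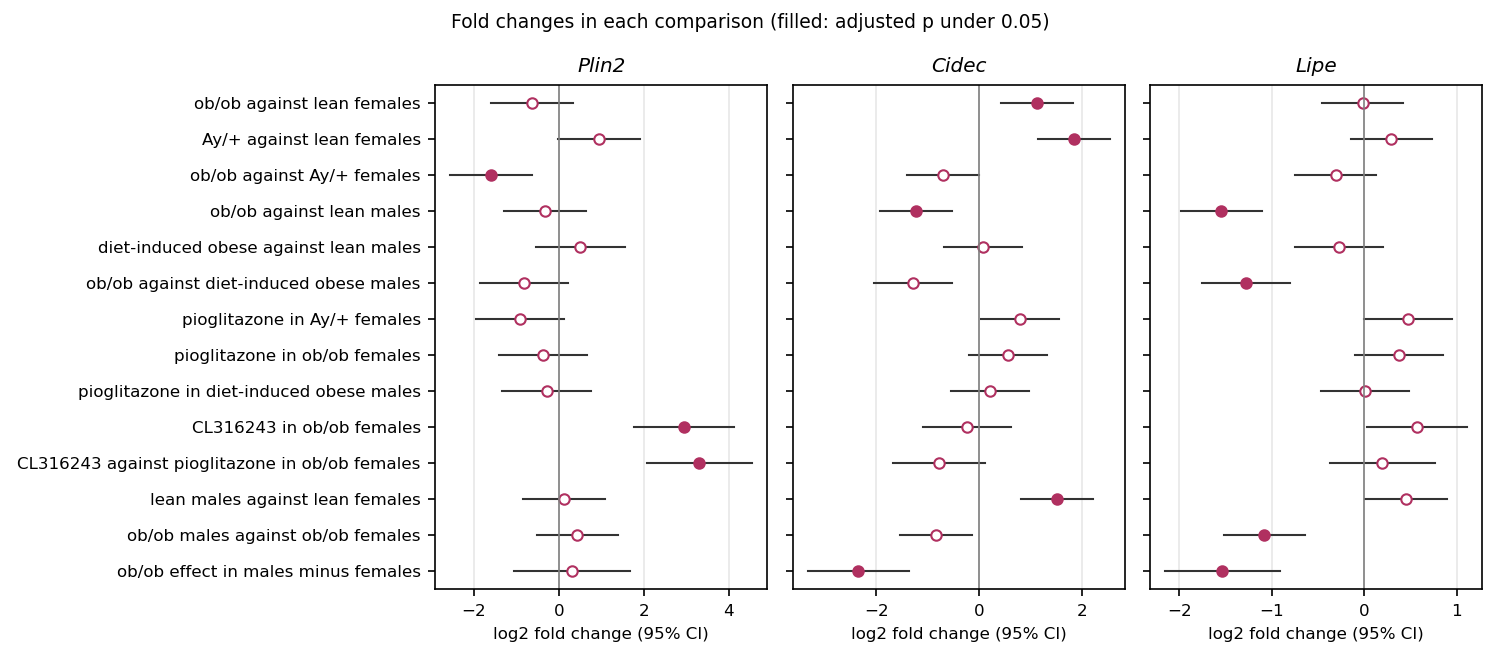
Log2 fold change with its 95% interval for Plin2, Cidec and Lipe in 14 comparisons (rows), filled where the adjusted p was under 0.05; the horizontal scales differ between genes. Cidec is filled to the right for Ay/+ and ob/ob against lean females and to the left for ob/ob against lean males.

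Lipe was also lower in ob/ob than in diet-induced obese males, where 0.877% of probe sets were called (log2 -1.28, SE 0.23, adjusted p = 0.0024). Diet-induced obese males were at 3369, 3262 and 2906, above all ob/ob males. The later arrays, with 1 diet-induced obese male, gave -1.15 (adjusted p = 0.35). Cidec (-1.30, adjusted p = 0.086) and Plin2 (-0.83, adjusted p = 0.632) were not called there. The ob/ob arrays lay below all diet-induced obese ones for each of the 3 genes, and 14.1% of all probe sets had no overlap. The adipocyte marker sums were 20527 to 30918 in ob/ob and 39875 to 49040 in diet-induced obese males and the macrophage sums 30533 to 42213 and 21066 to 26767, and their part in the Lipe result was not tested. Against lean males, diet-induced obese males had no call among the 3 genes by limma and none at an unadjusted p under 0.05, where 1.85% of probe sets were called: Lipe -0.27 (95% interval -0.74 to 0.20), Cidec 0.07 (-0.69 to 0.82) and Plin2 0.51 (-0.54 to 1.55). Ces1d (-1.32) and Lipa (1.89) were the lipolysis genes called in that comparison.

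The ob/ob effect itself differed between the sexes for Cidec and Lipe. The effect in males minus that in females, where 5.68% of probe sets were called, was -2.35 for Cidec (SE 0.48, adjusted p = 0.0032) and -1.53 for Lipe (SE 0.31, adjusted p = 0.0023). For Plin2 it was 0.32 (95% interval -1.05 to 1.68, adjusted p = 0.804). With the batch as a block the values were -2.20 (adjusted p = 0.0051) and -1.56 (adjusted p = 0.0023). On later arrays alone, with 1 lean and 1 ob/ob female, they were -0.12 and -0.63. The ob/ob males, all on later arrays, shared no scan day with lean males or ob/ob females, so the effect and scan day cannot be told apart. The Gapdh ratio was 1.31 to 2.51 in lean and 0.71 to 1.85 in ob/ob females. In lean males it was 1.01 to 1.79 and in ob/ob males 0.80 to 1.06, and its part in these results was not tested.

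The sexes differed at baseline as well. Cidec was 2.83-fold higher in lean males than in lean females with no overlap (log2 1.50, adjusted p = 0.0040), against 15.7% of probe sets called and 20.5% with no overlap. Brown fat markers summed to 573 to 1043 in lean males and 3300 to 7397 in lean females, with 0 of 7 higher and 5 lower, and macrophage markers to 6795 to 8100 and 3175 to 5757. The ratio of the 3' to the 5' Gapdh control signal was 1.01 to 1.79 in lean males and 1.31 to 2.51 in lean females. The part of the markers and of this ratio in the Cidec result was not tested. Earlier arrays gave 1.91 (adjusted p = 2.9e-04) and later ones 0.52 (adjusted p = 0.603). Lipe (0.45, adjusted p = 0.142) and Plin2 (0.12, adjusted p = 0.881) were not called. In ob/ob mice, where 1.19% of probe sets were called and no scan day was shared, Lipe was 2.11-fold lower in males than in females (log2 -1.08, adjusted p = 0.0074). The ranges did not overlap, as for 9.25% of all probe sets. Macrophage sums were 30533 to 42213 in ob/ob males and 20223 to 29204 in ob/ob females and adipocyte sums 20527 to 30918 and 30457 to 38956, and their part in the Lipe result was not tested. Later arrays, with ob/ob female replicate 4 alone, gave -0.57 (adjusted p = 0.276), and scan day as a random block -0.93 (adjusted p = 0.0996). Cidec (-0.85, adjusted p = 0.275) and Plin2 (0.44, adjusted p = 0.826) were not called between ob/ob sexes.

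The remaining genes most like Cidec over the 35 arrays were Grina (r = 0.86), Bscl2 (0.85), Ech1 (0.85), Atp9a (0.82) and Hebp1 (0.82), and those most like Lipe were Plin4 (0.84), Akt2 (0.81), Cebpa (0.80), Ppm1m (0.80) and Pcx (0.79). Bscl2 is needed to form droplets, Ech1 is an enzyme of fatty acid oxidation, Cebpa is a transcription factor of adipocytes and Pcx is pyruvate carboxylase. Within groups the r with Cidec was 0.67 to 0.82. With Lipe it was 0.85 for Plin4 and 0.76 for Cebpa, but 0.52 for Ppm1m, 0.48 for Akt2 and 0.44 for Pcx. All 5 genes most like Lipe were lower in ob/ob than in lean males, from -0.90 for Cebpa to -2.53 for Pcx, where 10.6% of all probe sets were called. They were chosen by their likeness over the same arrays, so that is a description.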

How the data were processed

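Per the labels, total RNA of perigonadal fat was labelled and hybridised to Affymetrix MG-U74Av2 arrays. The authors deposited linear signal intensities computed with MAS5, per the submitters' processing notes, with 1 value for each probe set; the software version and scaling target are not given in the sources used here. The deposited experiment files hold other values, settings of washing and scanning, used only for batches. The 13 later arrays shared a trimmed mean of about 250.2, while the 22 earlier ones ranged from 336 to 1680.

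Signals were multiplied per array to give a 2% trimmed mean of 250, and log2 was taken after adding 23, their 25th percentile. Of 12488 probe sets 66 controls were left out; of the rest 10833 had 1 gene symbol, 396 several and 1193 none. limma 3.58.1 in R 4.3.3 (statmod 1.5.0 for random blocks) fitted 10 group means to the 35 arrays, with eBayes and a mean-variance trend, and Benjamini-Hochberg adjustment within each comparison over all probe sets; called means an adjusted p under 0.05. Fold changes are of signal plus 23. Simulated data had independent normal noise with the within-group spread of each probe set, and no batch, scan day or outlying array. There 45% of log2 changes of 1 and 96% of 2 were recovered for ob/ob against lean females, with 6% of calls false. For CL316243 22% and 82% were recovered, with 3.7% of calls false. The real arrays have the features left out, so these rates need not hold for them. The number of arrays limits the precision of every value.

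The 3 genes and the gene lists were chosen with earlier results of these data known. Lists name at most 4 called genes with the lowest p per comparison, and Cidea, Pnpla2, Mgll, Abhd5, G0s2, Dgat1, Adipoq, Cd68 and Pparg where they bear on a result; other list genes were named after their values were seen. The probe set with the highest mean stands for a list gene. The rule that chose the genes also named the beta3-adrenergic receptor gene and found no member for it; it was not analysed here, nor were Plin1, Plin3, Dgat2, Pde3b and Prkar2b.

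The labels do not say that a replicate number marks a shared animal, litter or day. Alternatives were quantile normalization, a pseudocount of 1, probe sets above the median, no trend, array weights, batch, scan day or replicate number as a block, earlier or later arrays only, the compared groups only, leaving out the 4 arrays that stood apart or each array in turn, and, added after seeing the data, a covariate for Plin2. Sequences were copied from RefSeq promoter windows, and figures were drawn in matplotlib 3.10.9 (python 3.11.15, pandas 2.3.3, numpy 2.4.6).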

Additional observations from a re-analysis of the deposited data

Results flagged for a closer look

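Within groups of 4 arrays, 4 values lay further from the rest than Dixon's 95% critical value allows, of 18 sets of values tested, where chance gives about 1 in 20. Plin2 was lowest on Ay/+ female replicate 4, at 4366, with the other 3 between 5037 and 5180. Lipe was highest on Ay/+ female replicate 1, at 4012, and that array also had the lowest correlation with its own group. Cidec and Lipe were lowest on ob/ob female replicate 4, at 1242 and 1936, the array on which Plin2 was highest, at 5092. That array was the 1 later array of the untreated ob/ob females, and its part in the ob/ob results is given beside them.

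The effect of the ob/ob genotype differed between the sexes by -2.35 for Cidec and -1.53 for Lipe (log2, males minus females), each called by a test of the difference itself. Later arrays alone, with 1 lean and 1 ob/ob female, gave -0.12 and -0.63. All ob/ob males were on later arrays and shared no scan day with lean males or ob/ob females. The difference and scan day therefore cannot be told apart. Cidec was higher in ob/ob than in lean females and lower in ob/ob than in lean males.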

How the results depend on the processing

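Over the alternatives, leaving out arrays included, called results of the 3 genes kept direction and call in 216 fits, lost the call in 28 and changed sign in 1; uncalled results stayed uncalled with their sign in 517, gained a call in 16 and changed sign in 46. Values below are log2 fold changes, DIO is diet-induced obese, and the cause of each change was not tested. With array weights, a call was gained for Cidec -1.48 (ob/ob against DIO males), Cidec -0.85 (CL316243 against pioglitazone in ob/ob females), Lipe 0.54 (lean males against lean females), Plin2 0.89 and Cidec -1.22 (ob/ob males against ob/ob females). The sign changed for Lipe 0.24 (ob/ob against lean females), Plin2 0.10 (pioglitazone in ob/ob females), Plin2 0.042 (pioglitazone in DIO males). With the batch as a block, the sign changed for Lipe -0.015 (pioglitazone in DIO males), Plin2 -0.030 (lean males against lean females), Plin2 -0.017 (ob/ob males against ob/ob females). Fitted on the compared groups only, the call was lost for Cidec 1.12 (ob/ob against lean females), Plin2 -1.59 (ob/ob against Ay/+ females), Plin2 2.95 (CL316243 in ob/ob females), Lipe -1.08 (ob/ob males against ob/ob females). A call was gained for Cidec -1.30 (ob/ob against DIO males), Cidec -0.79 (CL316243 against pioglitazone in ob/ob females). The 5-gene covariate was picked for its likeness to Plin2 over these arrays, so smaller differences with it follow in part from that choice. With it, the call was lost for Plin2 -0.28 (ob/ob against Ay/+ females), Plin2 1.52 (CL316243 in ob/ob females), Plin2 1.27 (CL316243 against pioglitazone in ob/ob females). The sign changed for Plin2 -0.049 (DIO against lean males), Plin2 0.24 (pioglitazone in ob/ob females), Plin2 -0.12 (the sex difference of the ob/ob effect). On earlier arrays only, a call was gained for Plin2 1.23 (Ay/+ against lean females). The sign changed for Lipe 0.33 (ob/ob against lean females), Cidec -0.054 (DIO against lean males), Plin2 0.18 (pioglitazone in ob/ob females), Plin2 -0.24 (lean males against lean females). On later arrays only, with as few as 1 array a group, the call was lost for Cidec 0.79 (Ay/+ against lean females), Plin2 -0.024 (ob/ob against Ay/+ females), Cidec -1.11 (ob/ob against lean males), Lipe -1.15 (ob/ob against DIO males), Cidec 0.52 (lean males against lean females), Lipe -0.57 (ob/ob males against ob/ob females), Cidec -0.12 and Lipe -0.63 (the sex difference of the ob/ob effect). A call was gained for Plin2 -0.98 (ob/ob against lean males). The sign changed for Plin2 0.10 and Cidec -0.99 (ob/ob against lean females), Plin2 -0.86 (DIO against lean males), Plin2 0.28 (pioglitazone in DIO males), Plin2 -0.12 (lean males against lean females), Plin2 -1.20 and Cidec 0.41 (ob/ob males against ob/ob females), Plin2 -1.08 (the sex difference of the ob/ob effect). Over probe sets above the median, a call was gained for Cidec -1.30 (ob/ob against DIO males). After quantile normalization, the sign changed for Lipe 0.15 (ob/ob against lean females), Cidec -0.072 (DIO against lean males), Lipe -0.12 (pioglitazone in DIO males), Lipe -0.37 (CL316243 against pioglitazone in ob/ob females). With scan day as a random block, the call was lost for Cidec 0.78 (ob/ob against lean females), Plin2 -1.45 (ob/ob against Ay/+ females), Lipe -0.93 (ob/ob males against ob/ob females). The sign changed for Lipe -0.014 (pioglitazone in DIO males), Plin2 -0.0047 (lean males against lean females). Without the 4 arrays that stood apart, a call was gained for Plin2 -1.18 (ob/ob against lean females), Cidec -1.30 (ob/ob against DIO males), Cidec -1.27 (ob/ob males against ob/ob females). The sign changed for Lipe 0.16 (ob/ob against lean females), Plin2 0.18 (pioglitazone in ob/ob females). Leaving out each array in turn, calls or signs changed for Plin2 from -1.18 to -0.34 and Cidec from 0.80 to 1.54 and Lipe from -0.20 to 0.16 (ob/ob against lean females), Plin2 from -2.14 to -1.30 (ob/ob against Ay/+ females), Cidec from -1.40 to -1.13 (ob/ob against lean males), Plin2 from -0.036 to 0.86 and Cidec from -0.15 to 0.28 (DIO against lean males), Plin2 from -0.65 to 0.18 (pioglitazone in ob/ob females), Plin2 from -0.64 to 0.25 and Cidec from -0.012 to 0.51 and Lipe from -0.069 to 0.14 (pioglitazone in DIO males), Plin2 from 2.66 to 3.49 (CL316243 in ob/ob females), Lipe from -0.032 to 0.34 (CL316243 against pioglitazone in ob/ob females), Plin2 from -0.17 to 0.42 and Lipe from 0.27 to 0.62 (lean males against lean females), Cidec from -1.27 to -0.68 (ob/ob males against ob/ob females). With the replicate number as a replicate block no call of the 3 genes changed; Plin2 with CL316243 in ob/ob females was 2.82 and Cidec in ob/ob against lean females 1.12. The numbers did not pair the arrays: same-numbered arrays of different groups had a median correlation of deviations of 0.0006 over 141 pairs, and others 0.0015. None of the 3 genes was called in a difference between pioglitazone effects under any alternative. The number of probe sets called in all moved by over 1.5 times under some alternative in every comparison: from 3024 to between 517 and 5630 in ob/ob and from 2207 to between 162 and 4102 in Ay/+ against lean females, from 2685 to between 221 and 5357 in ob/ob against Ay/+ females, from 1314 to at most 2554 in ob/ob against lean males, and from 464 to between 4 and 3186 with CL316243.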
